A study of Mus musculus with 8 samples.

Results

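The lineage dependence of the deltaPOZ effect was measured as the interaction, the log2 fold change of deltaPOZ over wt in T cell tumours minus that in B cell tumours. A positive interaction means that the T tumours carrying deltaPOZ lay higher, relative to their wt tumours, than the B tumours did. It was read over 8785 autosomal genes with a mean level of at least 5 CPM (counts scaled to the library total) in each lineage, out of 16456 genes tested and 27639 genes with a count. Eligibility used the mean of a lineage over its 4 libraries, without regard to genotype. No gene had an interaction past the threshold in the quasi-likelihood test of edgeR, with p-values adjusted by Benjamini-Hochberg across the whole table (0 of 16456, 0%), where the smallest adjusted p was 0.259 and 459 eligible genes had an unadjusted p under 0.05. Limma-voom called 0 as well. DESeq2, run on the same counts, called 84 eligible genes (0.956%), of which 51 lay higher in T relative to B and 33 lower. Genes are therefore described below by their level in each library, and "lower" or "higher" refers to those levels.

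The data are messenger RNA libraries of spleen tumours, each from a separate mouse of the C57Bl6 strain, 8 in all. The 4 groups were B cell tumours with wt Miz1, B cell tumours with Miz1 deltaPOZ, CD4+ T cell tumours with wt Miz1 and CD4+ T cell tumours with Miz1 deltaPOZ, with n = 2 libraries in each. The labels give neither the oncogene or agent that started the tumours, nor the Cre driver or promoter, nor the age of the mice. The names under which the T tumours were deposited all carry the word Notch, those of the T deltaPOZ tumours alone carry the letters ENU, and the B and T tumours carry different run tags. The labels explain none of these, so run and lineage cannot be told apart, and neither can deltaPOZ and whatever the ENU tag marks in T. Libraries held 44.3 to 58.3 M gene counts.

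Miz1, the product of Zbtb17, is a zinc finger transcription factor that activates genes near its own binding sites and represses others when it is bound by Myc. Its N-terminal POZ domain joins Miz1 molecules into multimers, and a Miz1 without it binds chromatin poorly. In the lymphoid system Miz1 is known for its part in early B and T cell development, downstream of the interleukin 7 receptor and through p53 and ribosomal protein genes. The comparison asks whether removal of the POZ domain leaves the same mark on B and T tumours.

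Several features of the libraries moved with the groups. B cell marker genes identified the B tumours (summed level of 15 markers 3890 to 6480 CPM) and T cell markers the T tumours (18 markers, 3770 to 5800 CPM against 112 to 229 CPM in B). The T tumours also held B cell marker RNA, at a sum of 1110 and 425 CPM in wt and 1170 and 540 CPM in deltaPOZ. They held Cd8a (760 and 1250 CPM in wt, 356 and 648 CPM in deltaPOZ) beside Cd4 (331 and 432 CPM against 98.8 and 118 CPM). The T marker sum was 5410 and 5800 CPM in T wt and 3770 and 4620 CPM in T deltaPOZ. For Cd8a, Cd4 and this sum, every T deltaPOZ library was thus below every T wt library. None of the B markers Cd79a, Cd79b, Pax5 and Ebf1 was at 0 in a T library. Erythroid markers summed to between 5520 and 25900 CPM in T and to 9.62 to 226 CPM in B, and neutrophil and macrophage markers reached 1500 CPM in B wt 2 against 152 to 435 CPM in the other B libraries. In T deltaPOZ 1 the recombinase gene Rag1 stood at 8.3 CPM and Dntt at 5.13 CPM, against 758 CPM or more and 112 CPM or more in the remaining T libraries. The number of genes with a count was 25387 in T deltaPOZ 2 and 18339 to 21078 elsewhere. Both B wt tumours expressed Xist (975 and 1480 CPM) and neither B deltaPOZ tumour did beyond 0.936 CPM, so sex and genotype cannot be told apart in B. In T, Xist stood at 1250 CPM in T wt 1 and at 11.8 to 35.4 CPM in the other 3 libraries. In such bulk samples fewer cells of a type and less RNA per cell cannot be told apart.

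Zbtb17 itself (ENSMUSG00000006215, chr4:141444654-141467930 on GRCm38, plus strand) measured 66.1 and 48.0 CPM in B wt, 49.4 and 59.1 CPM in B deltaPOZ, 49.6 and 42.3 CPM in T wt, and 40.1 and 36.9 CPM in T deltaPOZ. The B groups overlapped, and both T deltaPOZ libraries were below both T wt libraries. Its interaction was -0.18 (95% interval -0.94 to 0.58, edgeR adjusted p = 0.977). The count covers the whole gene, so this level does not check the deletion of the POZ exons.

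Across the 8785 genes the deltaPOZ effect was wider in B than in T. The interquartile range of the log2 fold change was 0.58 in B and 0.34 in T, and 635 genes (7.23%) differed more than 2-fold in B against 154 (1.75%) in T. At an unadjusted edgeR p under 0.05 there were 1204 genes for the B effect (13.7%) and 185 for the T effect (2.11%). The T share is below the share that a p under 0.05 takes in where no gene has an effect. Both counts rest on an estimate of spread shared by the lineages. The B groups also differed in sex, so the wider B effect cannot be assigned to genotype. As the normalization centres the fold changes near 0, 49.3% of genes were above 0 in B, 46.9% in T and 49.3% for the interaction. Gene by gene, the effects in B and T correlated weakly (Pearson 0.166, Spearman 0.257 across 8785 genes of the same 8 libraries) and had the same sign for 60.7% of genes. This correlation fell to 0.029 without T wt 1 and stood at 0.241 without T deltaPOZ 2. Of the sum of squares of log2(CPM + 1) over these genes, lineage took 59.9%, genotype 9.47%, the interaction 6.7% and the spread between replicates 23.9%. Per degree of freedom, the interaction was 1.12 times the spread between replicates and genotype 1.58 times.

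At an unadjusted edgeR p under 0.05 the interaction took in 459 genes (5.22%), of which 240 (2.73%) lay higher in T relative to B and 219 (2.49%) lower. That 5.22% is near the share that a p under 0.05 takes in where no gene has an interaction. The count by itself therefore does not mark a set of lineage-dependent genes. The median half-width of an interaction's 95% interval was 0.90 on the log2 scale, so a 1.5-fold difference between lineages was not detectable for the median gene. Among the 459 genes, wt and deltaPOZ libraries did not overlap in B alone for 125 that were lower (27.2%) and 108 that were higher (23.5%) in deltaPOZ, against 13.2% and 16.1% of all eligible genes. They did not overlap in T alone for 22 lower (4.79%) and 9 higher (1.96%), against 10.8% and 7.52%. In 163 the libraries were apart in both lineages with opposite directions, and in 32 with the same direction. Over all eligible genes the libraries were apart in opposite directions for 372 (4.23%) and in the same direction for 917 (10.4%). The 459 genes were chosen by the interaction in these same libraries. That choice by itself favours groups that do not overlap and opposite directions, so the shares are a description only.

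**Figure D1:**
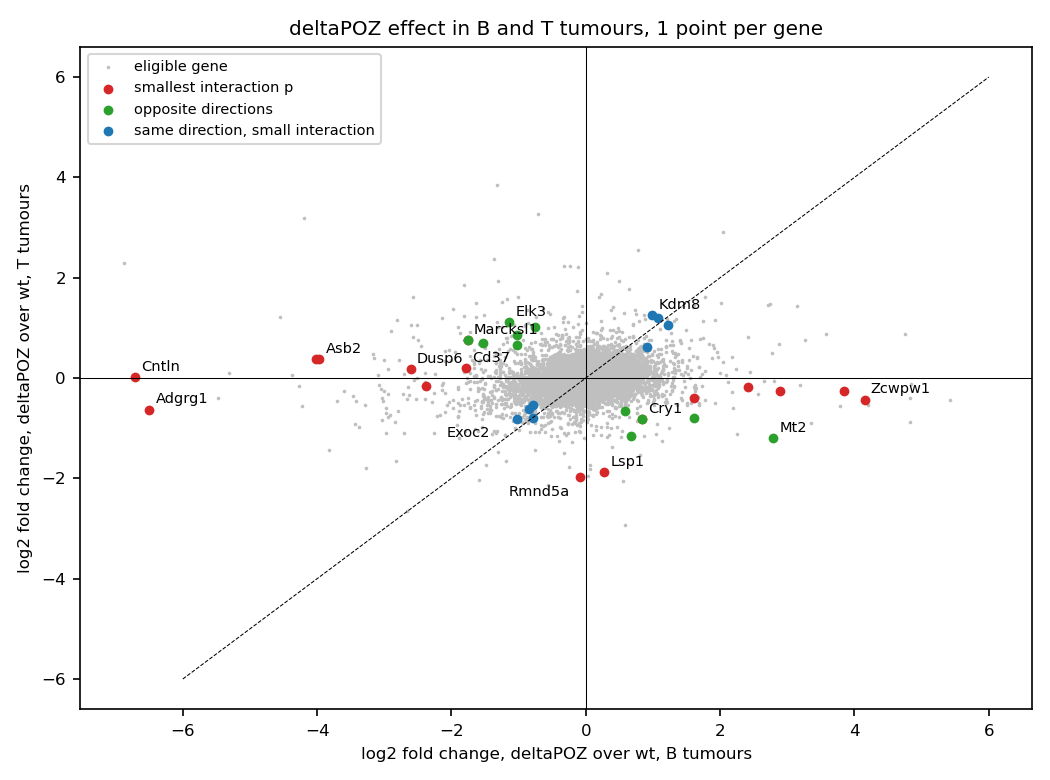
Each point is 1 of the 8785 eligible genes, with the log2 fold change of deltaPOZ over wt in B tumours (x axis) against that in T tumours (y axis); the dashed line marks equal effects. The cloud is wider along the B axis (interquartile range 0.58) than along the T axis (0.34), Asb2 and Cntln lie far left with T effects of 0.37 and 0.02, and Lsp1 and Rmnd5a lie low in T near 0 in B.

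The genes with the smallest interaction p among those higher in T relative to B were low in the B deltaPOZ tumours, with smaller differences in T. Asb2, which encodes the substrate receptor of a ubiquitin ligase that targets filamins, had the smallest p. It measured 43.1 and 36.4 CPM in B wt, 3.08 and 1.99 CPM in B deltaPOZ, 4.18 and 6.45 CPM in T wt, and 7.37 and 6.38 CPM in T deltaPOZ. The B groups were far apart and the T groups overlapped. The log2 fold change was -3.97 in B and 0.37 in T, an interaction of 4.34 (95% interval 3.12 to 5.56, edgeR adjusted p = 0.259, DESeq2 adjusted p = 1.13e-12). Cd37, a tetraspanin of mature B cells, measured 267 and 250 CPM in B wt, 67.2 and 82.8 CPM in B deltaPOZ, 27.1 and 23 CPM in T wt, and 29.3 and 28.1 CPM in T deltaPOZ, so that the T groups were apart by little in the other direction. Its interaction was 1.98 (1.37 to 2.59, edgeR adjusted p = 0.259, DESeq2 adjusted p = 2.58e-07).

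Dusp6, a phosphatase that switches off ERK, had a similar course, at 373 and 252 CPM in B wt, 56.7 and 45.9 CPM in B deltaPOZ, and 10 to 14.5 CPM in T. The interaction was 2.79 (1.87 to 3.71). Cntln, which encodes a centrosomal protein, was all but absent from B deltaPOZ (0.663 and 0.219 CPM) against 41.6 and 51.1 CPM in B wt, while its T levels of 3.66 and 10.1 CPM in wt and 5.59 and 8.40 CPM in deltaPOZ overlapped. Its interaction of 6.72 (4.45 to 9.0) was the largest of the named genes. Adgrg1, an adhesion G protein-coupled receptor, had B wt levels of 11.9 and 24.3 CPM and B deltaPOZ levels of 0.078 and 0.319 CPM. In T it was lower in deltaPOZ too, but by far less, at 35.6 and 37.8 CPM against 57.4 and 56.5 CPM, and the interaction was 5.87 (3.99 to 7.74). Mvb12b, a subunit of the ESCRT-I sorting complex, and Mier3, a chromatin-associated MIER family member, were likewise low in B deltaPOZ (0.527 and 1.24 CPM; 15.8 and 15.6 CPM) with overlapping groups in T. Their interactions were 4.38 and 2.22, and the edgeR adjusted p of these 5 genes ran from 0.259 to 0.269.

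Other genes were higher in B deltaPOZ, with smaller differences in T. Asph, an aspartyl hydroxylase, had B wt levels of 1.69 and 3.47 CPM and B deltaPOZ levels of 44.0 and 29.6 CPM, against 15.6 to 26.6 CPM in the T libraries, whose groups overlapped. The B deltaPOZ tumours thus held as much of this transcript as the T tumours. Its interaction was -4.09 (-5.57 to -2.61, edgeR adjusted p = 0.266, DESeq2 adjusted p = 2.58e-07). Atxn1, a transcriptional corepressor partner, was at 1.31 and 1.65 CPM in B wt, 8.85 and 13.0 CPM in B deltaPOZ and 41.6 to 72.6 CPM in T, with an interaction of -3.14 (-4.32 to -1.95). Iqgap2, a scaffold protein of the actin cytoskeleton, was at 11.4 and 9.92 CPM in B wt against 65.8 and 33.7 CPM in B deltaPOZ, and at 78.8 and 87.1 CPM in T wt against 98.0 and 89.3 CPM in T deltaPOZ. Its groups were apart in the same direction in both lineages, by 2.23 in B and 0.18 in T on the log2 scale. Zcwpw1, a histone methylation reader of meiotic cells, reached 105 and 38.8 CPM in B deltaPOZ from 2.60 and 5.54 CPM in B wt, with T groups that overlapped (8.70 to 19.5 CPM). Cyb561a3, a lysosomal iron reductase, and Mfsd2a, a lysophospholipid transporter, had B deltaPOZ levels of 39.2 to 42.4 and 19 to 21.4 CPM against 12.8 to 14 and 3.49 to 4.07 CPM in B wt. Their interactions were -2.00 and -2.59 (edgeR adjusted p = 0.266 and 0.512). In T, Cyb561a3 lay slightly lower in deltaPOZ (13.0 and 12.3 CPM against 16.0 and 17.2 CPM).

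Fewer genes were apart in T alone, and the clearest were lower in deltaPOZ. Lsp1, an F-actin binding protein of leukocytes, stood at 77.1 and 73.6 CPM in T wt and 19 and 22.2 CPM in T deltaPOZ, while the B groups overlapped at 296 and 346 CPM in wt and 446 and 328 CPM in deltaPOZ. The log2 fold change was -1.87 in T and 0.27 in B, an interaction of -2.14 (-2.83 to -1.46, edgeR adjusted p = 0.259, DESeq2 adjusted p = 5.67e-07). Rmnd5a, a RING subunit of the CTLH ubiquitin ligase, stood at 939 and 1340 CPM in T wt and 266 and 317 CPM in T deltaPOZ, and at 128 to 194 CPM in B, where the groups overlapped. Its interaction was -1.88 (-2.77 to -0.98, edgeR adjusted p = 0.478, DESeq2 adjusted p = 0.00528). Lipa, the lysosomal acid lipase, was at 179 and 173 CPM in T wt against 60.2 and 92.6 CPM in T deltaPOZ, and Map4, a microtubule-associated protein, at 122 and 101 CPM against 64.3 and 57.3 CPM. Both had overlapping groups in B, with interactions of -1.17 and -0.80.

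Genes higher in T deltaPOZ alone were fewer. Etv6, an ETS family repressor needed in blood stem cells, stood at 42.6 and 39.8 CPM in T wt, 102 and 92.4 CPM in T deltaPOZ, and 17.3 to 23.9 CPM in B. The interaction was 1.33 (0.61 to 2.06, edgeR adjusted p = 0.577, DESeq2 adjusted p = 0.0156). Zfp516, a zinc finger factor, was at 12.9 and 6.04 CPM in T wt against 39.5 and 23.3 CPM in T deltaPOZ. Msh6, a mismatch repair gene, and Fkbp3, a nuclear prolyl isomerase, differed by less (T log2 fold changes of 0.35 and 0.45) and were apart in B in the other direction (-0.17 and -0.28). DESeq2 did not call these 3 (adjusted p = 0.29 to 0.508).

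**Figure D2:**
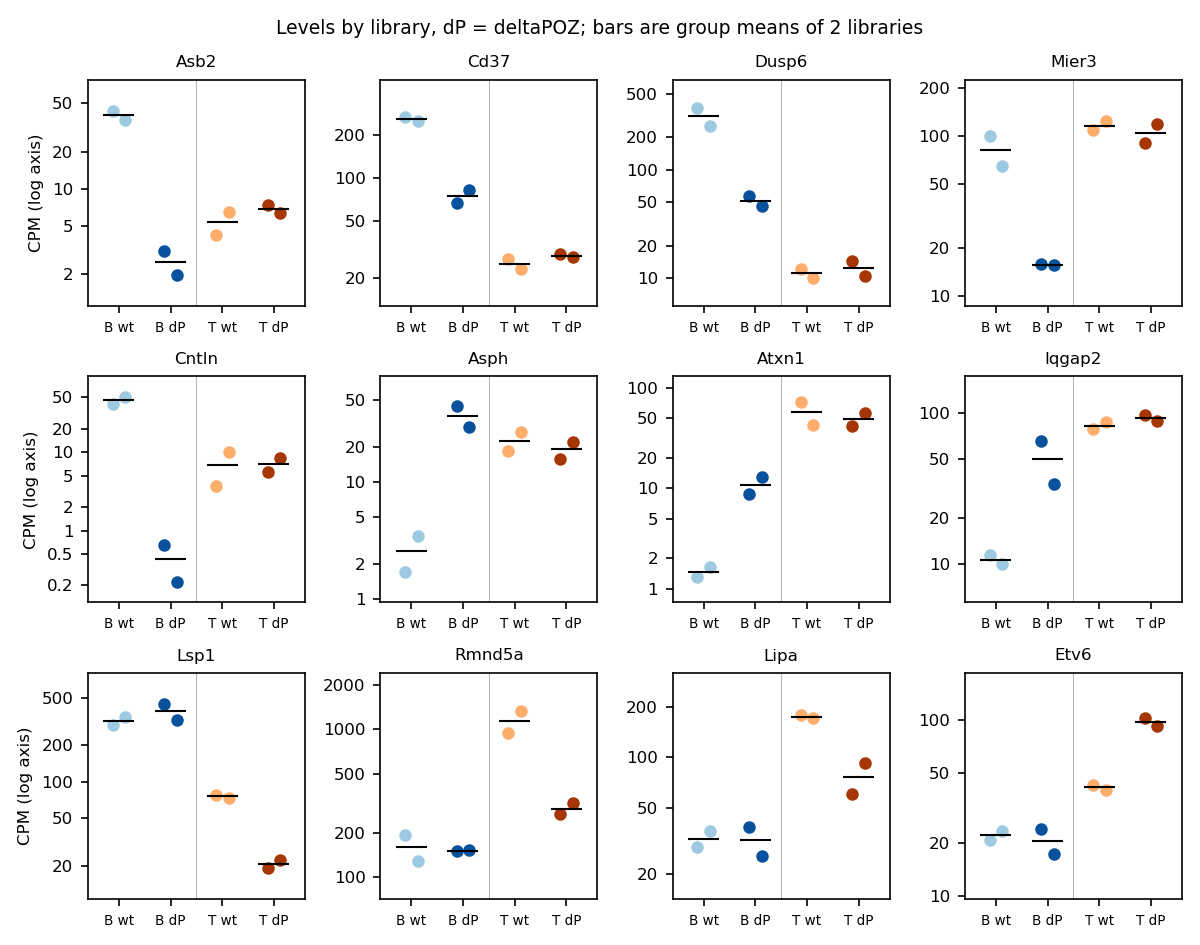
Levels in CPM (log axis) of 12 genes with a larger difference in 1 lineage than in the other, 1 point per library and a bar at each group mean (n = 2). The top 5 panels show genes low in B deltaPOZ, Asph, Atxn1 and Iqgap2 are high in B deltaPOZ relative to B wt, and the bottom row shows Lsp1, Rmnd5a and Lipa low and Etv6 high in T deltaPOZ.

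A full change of direction needed wt and deltaPOZ libraries that did not overlap in either lineage, with opposite signs. The fitted fold change between the groups, not the gap between single libraries, had to be at least 1.5 in each lineage. This was found for 31 genes (0.353%), against 86 genes that met the same limits with the same sign (0.979%). Of the 31, 22 were lower in B deltaPOZ and higher in T deltaPOZ, and 9 the reverse. Marcksl1, an actin-binding protein related to MARCKS, had the smallest interaction p. It measured 92.9 and 90.5 CPM in B wt, 20.6 and 33.5 CPM in B deltaPOZ, 87.6 and 95.4 CPM in T wt, and 178 and 129 CPM in T deltaPOZ. Its level was thus near the same in the wt tumours of both lineages, and the interaction was 2.51 (1.59 to 3.43, edgeR adjusted p = 0.266, DESeq2 adjusted p = 2.66e-05). Elk3, an ETS factor regulated by ERK, was at 43.5 and 63.6 CPM in B wt, 29.3 and 19.4 CPM in B deltaPOZ, 7.09 and 5.84 CPM in T wt, and 14.3 and 13.7 CPM in T deltaPOZ, with an interaction of 2.25 (1.23 to 3.27). Ralgds, an exchange factor for Ral GTPases, had 13.6 and 12.3 CPM in B wt against 4.91 and 4.03 CPM in B deltaPOZ, and 5.35 and 7.79 CPM in T wt against 11.7 and 9.46 CPM in T deltaPOZ. Gpsm1, a G protein signalling modulator, Tmbim1, a membrane protein of the Bax inhibitor family, and Unc93b1, which carries nucleic acid sensing Toll-like receptors to endosomes, had interactions of 1.69, 1.77 and 1.87.

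Most genes of that direction were B cell genes by level. Of the 22, 20 had a higher mean in B than in T, 13 by more than 2 times and 9 by more than 5 times, and 18 were lower in T wt 2 than in T wt 1. The B cell factor gene Ebf1 showed the same order in T, at 4.36 and 1.19 CPM in T wt against 4.80 and 8.34 CPM in T deltaPOZ. Cd79a, which encodes the Ig-alpha subunit of the B cell receptor and was itself among the 22, was at 6.13 and 1.35 CPM against 7.29 and 9.99 CPM. Cd79b did not follow it, at 23 and 5.23 CPM in T wt against 20.9 and 25.2 CPM in T deltaPOZ. T wt 2 was the lowest T library for Ebf1, Cd79a and Cd79b. Of the 11 eligible B cell markers, 4 were apart and higher in T deltaPOZ. Of all eligible genes, 7.52% were apart and higher in T alone, a share that leaves out those apart in both lineages (4.23% in opposite directions and 10.4% in the same direction). The part of B cell RNA in these T values was not tested. Within the 7391 genes whose lineage means lay within 2-fold of each other, 8 genes were lower in B and higher in T and 7 the reverse. The interaction had an unadjusted edgeR p under 0.05 for 4.23% of those genes, 12.6% of the 680 with a B mean over 2 times the T mean, and 8.4% of the 714 with a T mean over 2 times the B mean.

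In the reverse direction, Cry1, a repressor of the circadian clock, measured 21.7 and 20.3 CPM in B wt, 35.0 and 40.1 CPM in B deltaPOZ, 43.3 and 56.1 CPM in T wt, and 27.5 and 29.0 CPM in T deltaPOZ. The order of the genotypes was reversed between lineages with no overlap in either. Its interaction was -1.65 (-2.36 to -0.94, edgeR adjusted p = 0.351, DESeq2 adjusted p = 0.00042). Gne, the enzyme that starts sialic acid synthesis, was at 92.8 and 53.8 CPM in B wt, 142 and 92.8 CPM in B deltaPOZ, 45.4 and 51.6 CPM in T wt, and 22.8 and 20.6 CPM in T deltaPOZ. B wt 1 and B deltaPOZ 2 had the same level to 3 digits, so the B groups were barely apart. Ralgps2, another Ral exchange factor, was at 159 and 114 CPM in B wt, 174 and 236 CPM in B deltaPOZ, 169 and 149 CPM in T wt, and 100 and 103 CPM in T deltaPOZ. Further named genes of this direction were the metallothionein gene Mt2 and Hspbap1. Their interactions were -3.99 (-6.78 to -1.20) and -2.40 (-4.51 to -0.30), with edgeR adjusted p of 0.688 and 0.746. The T groups of Mt2 were apart by little, at 16.7 CPM in T wt 2 and 16.6 CPM in T deltaPOZ 2.

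**Figure D3:**
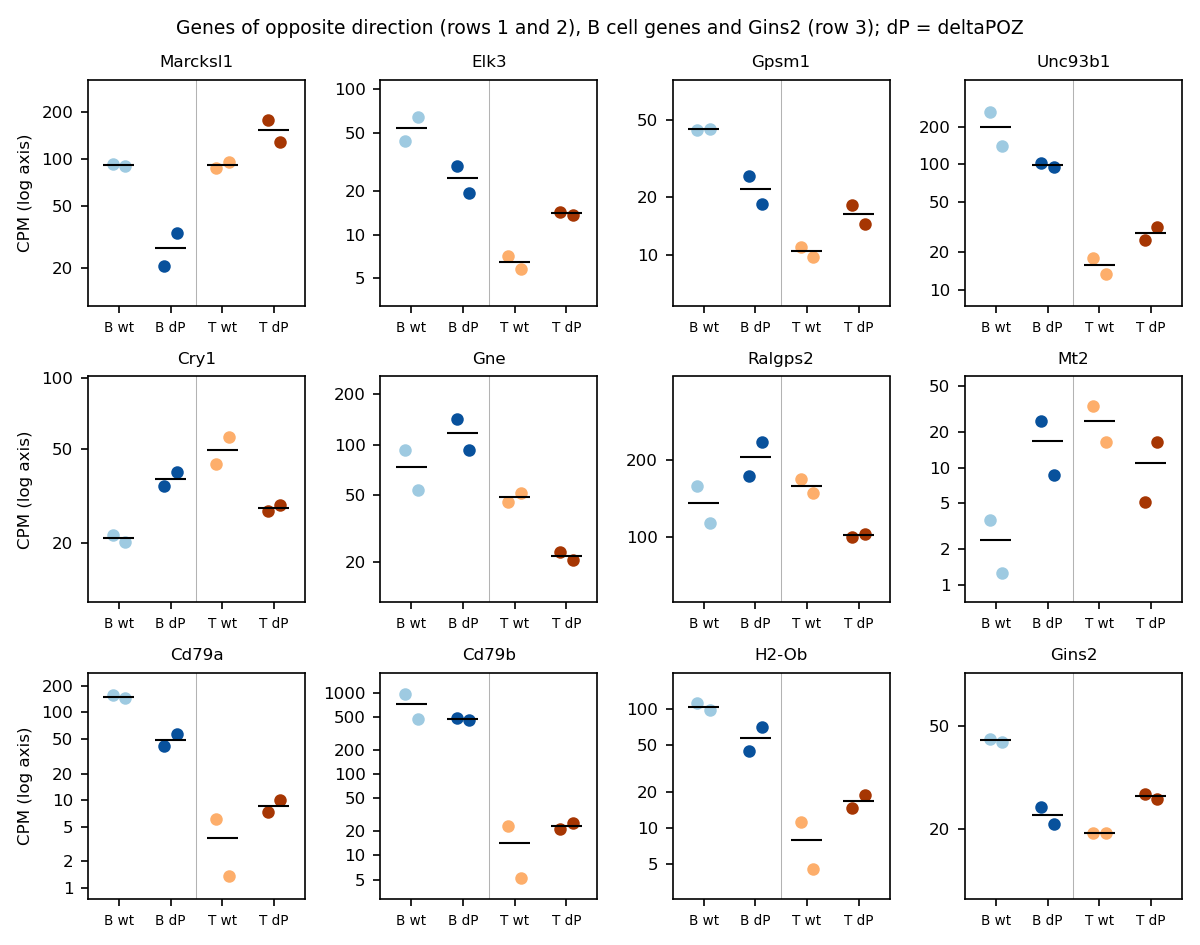
Levels in CPM (log axis), 1 point per library and a bar at each group mean (n = 2), for 4 genes lower in B deltaPOZ and higher in T deltaPOZ (top row), 4 genes of the reverse direction (middle row), and Cd79a, Cd79b, H2-Ob and Gins2 (bottom row). In the B cell genes Cd79a, Cd79b and H2-Ob T wt 2 is the lowest library, and Elk3, Gpsm1 and Unc93b1 are several times higher in B wt than in T wt.

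The promoters of 4 genes are given because they span the patterns above and hold the E-box CACGTG, which reads the same on both strands. It is a site bound by Myc and its partners and by other factors, and binding was not tested here. Asb2 and Cd37 were lower in B deltaPOZ alone, Cry1 was reversed between lineages, and Vamp4 was lower in both. They were chosen after their values were seen. Each line gives the 250 bases before the RefSeq start (GRCm38.p6), 5′ to 3′ on the gene's strand, in lower case with the E-box in capitals.
Asb2: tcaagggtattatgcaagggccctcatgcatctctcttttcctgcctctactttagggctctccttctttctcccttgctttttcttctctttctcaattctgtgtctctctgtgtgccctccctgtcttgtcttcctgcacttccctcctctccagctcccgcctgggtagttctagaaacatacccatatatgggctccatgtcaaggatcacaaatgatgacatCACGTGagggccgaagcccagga
Cd37: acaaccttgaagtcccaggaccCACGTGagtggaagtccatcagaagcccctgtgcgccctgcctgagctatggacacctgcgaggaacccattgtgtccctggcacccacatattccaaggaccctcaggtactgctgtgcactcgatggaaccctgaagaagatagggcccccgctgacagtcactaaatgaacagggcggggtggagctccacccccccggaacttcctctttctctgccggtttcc
Cry1: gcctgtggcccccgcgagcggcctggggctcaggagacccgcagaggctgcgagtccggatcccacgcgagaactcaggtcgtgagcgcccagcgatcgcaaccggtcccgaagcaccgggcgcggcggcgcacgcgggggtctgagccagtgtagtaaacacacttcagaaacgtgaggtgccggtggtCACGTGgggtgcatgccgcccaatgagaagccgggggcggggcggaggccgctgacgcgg
Vamp4: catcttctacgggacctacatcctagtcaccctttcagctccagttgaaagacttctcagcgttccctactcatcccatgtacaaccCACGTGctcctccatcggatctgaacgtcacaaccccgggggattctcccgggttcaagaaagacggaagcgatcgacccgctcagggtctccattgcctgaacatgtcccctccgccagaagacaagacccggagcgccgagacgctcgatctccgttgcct

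The 250 bases lie at chr12:103356002-103356251 (minus strand) for Asb2, chr7:45238840-45239089 (minus) for Cd37, chr10:85185055-85185304 (minus) for Cry1, and chr1:162570265-162570514 (plus) for Vamp4. The first base of the E-box lies 23 bases before the start in Asb2, 228 in Cd37, 60 in Cry1 and 163 in Vamp4. In windows from 250 bases before to 50 after the start, CACGTG was found in 2349 of 32851 windows (7.15%). By gene, it was found in 878 of the 6882 eligible genes with a window (12.8%). That share and those below count a gene with a match in any of its windows, so 7.15% cannot be set against them. Among genes with an interaction p under 0.05 it was found in 52 of 352 (14.8%), among genes of opposite direction in 4 of 21 (19%), and among genes of the same direction in 10 of 64 (15.6%). The match is a description of the letters only.

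Genes reported elsewhere as direct targets of Miz1, some of them genes of vesicle transport and autophagy, differed in the same direction in B and T more often than eligible genes at large, by count and without a test. Of 10 eligible genes on the list, libraries were apart in the same direction in both lineages for 6 (against 10.4% of all eligible genes), and for none in opposite directions (against 4.23%). Vamp4, a SNARE of the trans-Golgi network, measured 28.4 and 36.9 CPM in B wt, 12.2 and 6.62 CPM in B deltaPOZ, 27.6 and 28.9 CPM in T wt, and 14.4 and 12.7 CPM in T deltaPOZ. Its interaction was 0.73 (-0.38 to 1.85). Exoc2, an exocyst subunit, was at 157 and 91.5 CPM in B wt, 60.0 and 62.9 CPM in B deltaPOZ, 178 and 170 CPM in T wt, and 98.7 and 99.7 CPM in T deltaPOZ, with an interaction of 0.20 (-0.65 to 1.06). Ambra1, which promotes autophagy by way of Beclin 1, had log2 fold changes of -0.95 in B and -0.78 in T. Rpl22, a ribosomal protein required in developing lymphocytes, had -0.79 and -0.54. Tmem126a, a mitochondrial inner membrane protein, was the member with a higher level in deltaPOZ, by 0.53 in B and 0.75 in T. The intervals of these interactions reached from -0.83 to 1.16 for Ambra1, -0.71 to 1.14 for Tmem126a and -0.37 to 0.87 for Rpl22, with upper bounds above the size of the effect in either lineage.

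Snx18, a membrane-bending sorting nexin of autophagy, was placed on that list because earlier results of these data had named it, so its effect in each lineage is no independent evidence. It measured 38.0 and 37.6 CPM in B wt, 5.42 and 2.33 CPM in B deltaPOZ, 45.4 and 36.8 CPM in T wt, and 11.3 and 12.2 CPM in T deltaPOZ. Every deltaPOZ library was below every wt library, and the difference was larger in B (-3.28) than in T (-1.80). That interaction of 1.48 (0.19 to 2.78, edgeR adjusted p = 0.746, DESeq2 adjusted p = 0.29) did not pass the adjusted threshold. The median over the 10 other eligible targets was -0.87 in B, -0.50 in T and 0.21 for the interaction, against -0.01, -0.02 and -0.01 over all eligible genes. Leaving out 1 library at a time moved the interaction's median of these 10 from -0.10 to 0.38. The members Bcl2, Mxd4, Itgb1 and Itga6 had overlapping groups in T and interactions of 0.85, 1.10, -0.42 and -0.38, each with an interval that spans 0.

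Among the other genes of the same direction in both lineages, Kdm8, a JmjC domain oxygenase, was at 38.4 and 23.3 CPM in B wt, 59.5 and 62.9 CPM in B deltaPOZ, 18.9 and 17.0 CPM in T wt, and 49.1 and 36.8 CPM in T deltaPOZ. Its interaction was 0.27 (-0.69 to 1.22). Rpl22l1, the paralog of Rpl22, was at 165 and 199 CPM in B wt, 513 and 252 CPM in B deltaPOZ, 81.8 and 101 CPM in T wt, and 183 and 237 CPM in T deltaPOZ. In both lineages the paralogs lay on opposite sides, Rpl22 lower and Rpl22l1 higher in deltaPOZ, and the interaction of Rpl22l1 was 0.13 (-1.02 to 1.28). Endog, the mitochondrial endonuclease G, and Acy1, an aminoacylase, were higher in deltaPOZ in both lineages (average log2 fold changes of 1.14 and 0.77). Vps13d, a lipid transfer protein of mitochondria, and Gimap6, a lymphocyte GTPase of autophagy, were lower in both (averages of -0.79 and -0.73). The edgeR adjusted p of the average effect of these 6 and of Rpl22 and Exoc2 ran from 0.278 to 0.380. Of the 86 genes with the same direction and at least 1.5-fold in each lineage, 58 were lower and 28 higher in deltaPOZ.

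Among the lists other than cell type markers, the replication-dependent histone genes had the largest median interaction. All 29 eligible histone genes lay above 0 for the interaction (median 0.69, range 0.40 to 1.04, against 49.3% of all eligible genes above 0), with a median of -0.53 in B, where none was above 0, and 0.19 in T, where 24 were. Hist1h1b, a linker histone, measured 1230 and 1140 CPM in B wt, 739 and 700 CPM in B deltaPOZ, 807 and 1370 CPM in T wt, and 998 and 1390 CPM in T deltaPOZ. The B groups were apart and the T groups overlapped widely. No histone gene had an unadjusted p under 0.05, and Hist1h1b had an interaction of 0.85 (-0.11 to 1.81). The list median was between 0.30 and 1.18 with 1 library left out and 0.07 without B wt 2, T wt 1 and T deltaPOZ 2 together. The genes lie in clusters, share sequence and move together from library to library, so 29 genes are far from 29 measurements. Reads shared by near-identical copies make the counts of single histone genes uncertain. The libraries were made with a TruSeq Stranded mRNA protocol, and how fully or evenly it captures histone transcripts was not tested. These values therefore need not follow the total histone RNA of a tumour.

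Genes of DNA replication, the helicase, primase and clamp-loading factors of S phase, were also set higher in T relative to B. The interaction was above 0 for 25 of 30 (median 0.21), and 5 of 30 were apart in both lineages in opposite directions, against 4.23% of all eligible genes. Just as many, 5 of 30, were apart in the same direction, against 10.4% of all eligible genes. The B median was 0.01 and the T median 0.27, with 29 of 30 above 0 in T. Of all eligible genes, 46.9% were above 0 in T and 49.3% for the interaction. The interaction's median ran from 0.12 to 0.35 with 1 library left out. Gins2, a subunit of the GINS helicase complex (chr8:120578633-120589304, minus strand), measured 44.5 and 43.5 CPM in B wt, 24.4 and 20.8 CPM in B deltaPOZ, 19.3 and 19.3 CPM in T wt, and 27.2 and 26.2 CPM in T deltaPOZ. The replicates lay close together in all 4 groups. Its interaction of 1.43 (0.77 to 2.09) had an edgeR adjusted p of 0.444 and a DESeq2 adjusted p of 5.08e-05. Prim2, the large primase subunit, was at 178 and 134 CPM in B wt, 97.0 and 122 CPM in B deltaPOZ, 144 and 118 CPM in T wt, and 188 and 214 CPM in T deltaPOZ, and Rfc3, of the clamp loader, had log2 fold changes of -0.57 in B and 0.28 in T. Of 26 genes of nucleotide synthesis, 3 had an unadjusted p under 0.05, all higher in T relative to B (against 2.73% of eligible genes), among them Rrm2 (1.15) and Dck (0.71), while the list median was 0.06. Genes of G2 and M phase had a median of -0.32 in B and -0.18 in T, with 28 of 29 below 0 in T (46.9% of eligible genes were above 0 there). Of the 29, 11 were apart in the same direction in both lineages, against 10.4% of eligible genes.

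Genes of growth leaned the other way. All 34 eligible genes of ribosome biogenesis were above 0 in B (median 0.46) and 31 in T (median 0.22), and the interaction was below 0 for 29 (median -0.29). Of all eligible genes, 49.3% were above 0 in B, 46.9% in T and 49.3% for the interaction. Rcl1, Wdr12 and Polr1e, of pre-rRNA processing and RNA polymerase I, had an unadjusted interaction p under 0.05. They were 3 of 34, against 2.49% of all eligible genes in that direction. Rcl1 was at 112 and 134 CPM in B wt, 208 and 205 CPM in B deltaPOZ, and 45.9 and 56.5 against 51.2 and 40.9 CPM in T, where the groups overlapped. Amino acid response genes and tRNA synthetases had a median of 0.64 in B and 0.15 in T (interaction -0.51, 20 of 24 below 0), none at an unadjusted p under 0.05. Tars, a threonyl-tRNA synthetase, was at 187 and 203 CPM in B wt against 334 and 272 CPM in B deltaPOZ, and at 116 to 153 CPM in T with overlap. Glycolysis genes had medians of 0.56 and 0.23, and Eno1 (enolase) and P4ha1 (a collagen prolyl hydroxylase) had interactions of -0.96 and -1.24. Myc measured 380 and 265 CPM in B wt, 473 and 525 CPM in B deltaPOZ, 125 and 83.2 CPM in T wt, and 104 and 76.2 CPM in T deltaPOZ, with an interaction of -0.84 (-1.79 to 0.12). Ribosomal protein genes and genes of oxidative phosphorylation had interaction medians of 0.08 and 0.02. With 1 library left out the medians stayed below 0 for ribosome biogenesis (-0.51 to -0.09), tRNA synthetases (-0.69 to -0.21) and glycolysis (-0.52 to -0.13).

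Interferon-stimulated genes lay lower in T relative to B for 16 of 21 (median -0.45). The T median was -0.36, with 18 of 21 below 0, and the B median 0.05. Of all eligible genes, 49.3% were above 0 for the interaction and 46.9% in T. Trim25, a ubiquitin ligase of RIG-I signalling, was at 70.1 and 70.3 CPM in B wt, 96.4 and 113 CPM in B deltaPOZ, 130 and 98.5 CPM in T wt, and 97.9 and 79.8 CPM in T deltaPOZ. Its libraries were apart in both lineages, and the interaction was -0.94 (-1.63 to -0.24, edgeR adjusted p = 0.712). Ifih1, a sensor of double-stranded RNA, had an interaction of -1.62. With 1 library left out the list median ran from -0.59 to -0.14, and without the 3 libraries named above it was -0.12.

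Genes of the BCL2 family had a median of -0.43 in B and 0.02 in T, none of them at an unadjusted interaction p under 0.05. The interaction was above 0 for 10 of 11, against 49.3% of all eligible genes. NF-kB regulators and feedback genes were below 0 in B for 16 of 20 (49.3% of eligible genes were above 0), and 9 were apart and lower there. Of all eligible genes, 13.2% were apart and lower in B alone. That share leaves out genes apart in both lineages (4.23% in opposite directions and 10.4% in the same direction). Nfkbia, the NF-kB inhibitor, measured 122 and 54.1 CPM in B wt, 23.9 and 36.5 CPM in B deltaPOZ, and 100 to 124 CPM in T, with an interaction of 1.55 (0.21 to 2.89, edgeR adjusted p = 0.746). Cdkn2c, an inhibitor of CDK4 and CDK6, was at 87.0 and 46.2 CPM in B wt against 27.6 and 15.3 CPM in B deltaPOZ, with 108 to 134 CPM in T (interaction 1.68, 0.41 to 2.95). Lymphoid and progenitor transcription factors had a median of -0.45 in B and -0.13 in T, and Tcf3, the E protein E2A, was at 627 and 364 CPM in B wt, 265 and 287 CPM in B deltaPOZ and 199 to 215 CPM in T. Ccng1, a p53 target, had log2 fold changes of -0.98 in B and 0.33 in T, with B wt libraries of 170 and 321 CPM.

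Antigen receptor signalling and homing genes held single large interactions in both directions around medians of 0.07 and 0.11. Rasgrp1, an activator of Ras, had 26.4 and 16.7 CPM in B wt against 83.8 and 710 CPM in B deltaPOZ, and its interaction of -4.74 (-7.69 to -1.79) was -2.5 without B deltaPOZ 2. Plcg1, the phospholipase of the T cell receptor pathway, was at 75.9 and 88.0 CPM in B wt, 22.1 and 8.97 CPM in B deltaPOZ and 135 to 238 CPM in T (interaction 1.99, 0.61 to 3.37). Itgal, the alpha chain of LFA-1, was at 21.1 and 28.4 CPM in B wt against 9.15 and 5.28 CPM in B deltaPOZ, with 148 to 206 CPM in T. H2-Ob, a chain of the class II-related molecule H2-O of B cells, had an interaction of 1.95. Its T levels were 11.3 and 4.56 CPM in wt against 14.7 and 18.9 CPM in deltaPOZ, with T wt 2 the lowest, as for the B cell markers. It did not stand for its list. The 16 eligible genes of antigen presentation had a median interaction of -0.2, with 6 above 0 and 10 below. H2-Ob was the only 1 of them at an unadjusted interaction p under 0.05, and H2-DMa (-1.86) and Cd74 (-0.93) went the other way.

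**Figure D4:**
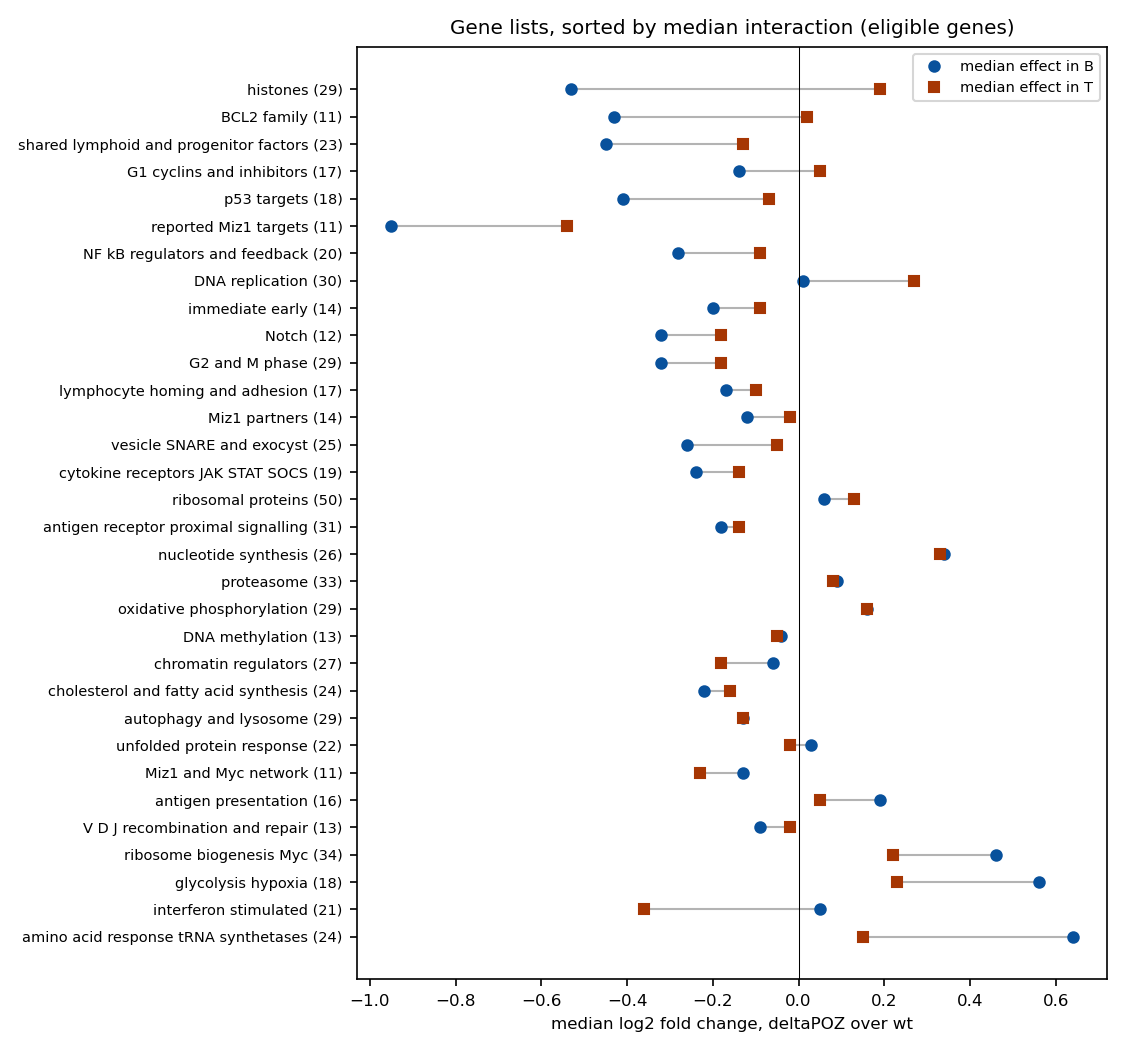
Median log2 fold change of deltaPOZ over wt in B (circles) and T (squares) for each gene list, with the number of eligible members in parentheses, sorted by the median interaction. Histones stand at -0.53 in B and 0.19 in T, reported Miz1 targets (Snx18 included) are low in both, and genes of ribosome biogenesis, glycolysis, the amino acid response and tRNA synthetases are further above 0 in B than in T.

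The interaction also followed chromosome position. On chromosome 4 the median interaction over 569 genes was -0.39, made up of 0.38 in B and -0.01 in T, against 0.01 over the 8216 other eligible genes. In its distal part from 120 Mb, 274 genes had a median of 0.54 in B and -0.01 in T, and 54 of them (19.7%) had an unadjusted edgeR p under 0.05, 53 lower in T relative to B. That region thus held 53 of the 219 genes of that direction. The median deviation from the gene means was -0.24 and -0.25 in B wt and 0.26 and 0.25 in B deltaPOZ over the distal part. Over the rest of chromosome 4 it was 0.39 in B deltaPOZ 1 and -0.12 in B deltaPOZ 2. Chromosome 12 had a median of -0.37 in B, where B wt 1 deviated by 0.44. Of its 323 genes, 23 (7.12%, against 5.22% of all eligible genes) had an unadjusted edgeR p under 0.05, all higher in T relative to B. Chromosome 18 had a median of -0.23 in B, where B wt 2 deviated by 0.17. Of its 217 genes, 14 (6.45%) had such a p, 13 of them higher in T relative to B. Chromosome 14 stood at 0.23 in T, where T deltaPOZ 1 deviated by 0.36. Chromosome 3 stood at 0.31 in B and 0.13 in T, where B deltaPOZ 1 deviated by 0.39 and T deltaPOZ 2 by 0.2. Rpl22l1 lies on it and was highest within each lineage in those libraries. Of the genes named above, Zbtb17, Marcksl1, Eno1, Mfsd2a, Polr1e, Cntln, Asph, Gne, Cdkn2c, Vps13d and Rpl22 lie on chromosome 4, and Asb2, Fkbp3, Nfkbia and Rrm2 on chromosome 12. Gene copy number was not measured in these libraries, and its part in the result was not tested. Without chromosome 4 the list medians were -0.26 for ribosome biogenesis, -0.44 for tRNA synthetases and -0.27 for glycolysis.

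**Figure D5:**
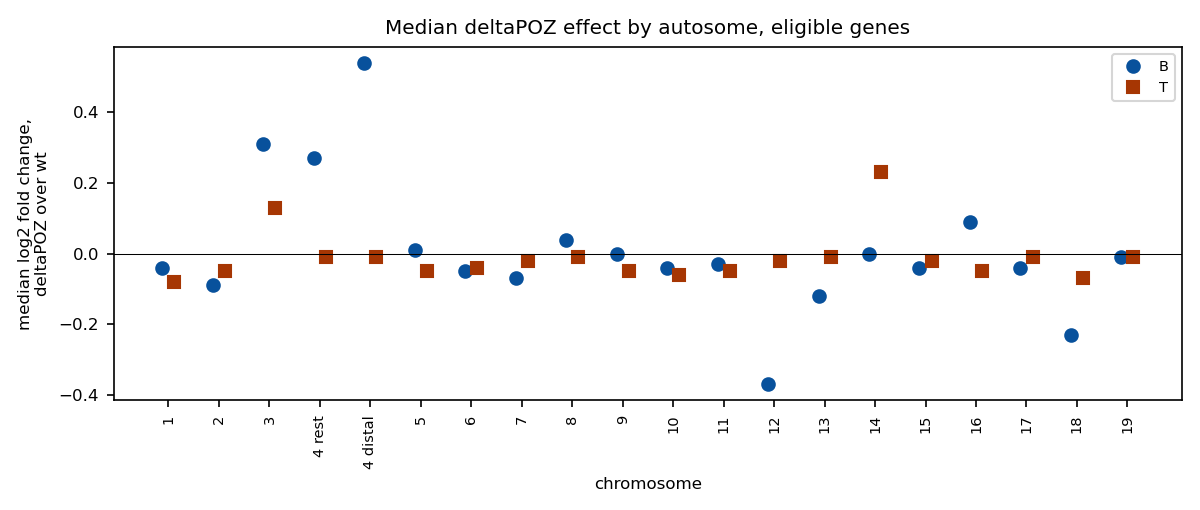
Median log2 fold change of deltaPOZ over wt by autosome in B (circles) and T (squares), with chromosome 4 divided into its distal part and the rest. Distal chromosome 4 stands at 0.54 in B and -0.01 in T, chromosome 12 at -0.37 in B, and chromosome 14 at 0.23 in T.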

How the data were processed

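Counts per gene were made and deposited by the authors. The submitters' processing notes name TopHat2 2.0.10 for alignment, the build mm10 (GRCm38), HTSeq for counting, SAMtools and DESeq. Libraries were TruSeq Stranded mRNA, per the labels' protocols. Neither the annotation release nor the strand setting is given in the sources used here. Counts without a feature (30.4 to 39.3%) or ambiguous (0.471 to 0.554%) were left out.

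Gene names came from GENCODE M21 (97.9% of 41214 identifiers). Counts were fitted with edgeR 4.0.16 (filterByExpr, trimmed mean of M values, glmQLFit, glmQLFTest) with 1 mean for each of the 4 groups; the fit had 4 residual degrees of freedom and a biological coefficient of variation of 0.45. Benjamini-Hochberg adjustment ran over the 16456 genes tested. Intervals are 95% intervals of the log2 fold change. CPM use the same normalization factors. Alternatives were DESeq2 1.42.0, limma-voom 3.58.1, other size factors, filters and thresholds, removal of chromosome 4 or of receptor segments, and leaving out each library. The code was tested on simulated data.

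Named genes are eligible protein-coding genes without receptor segments: the 8 with the smallest interaction p per direction, 6 per direction of those apart with opposite signs, 4 per lineage and direction of those apart in a lineage and under 0.3 in size in the other, where they may also be apart, 4 per direction of those alike (interaction under 0.3 in size), and up to 4 per list. Members and lists were chosen with earlier results of these data known. Values of some single genes are left out of the text; the fits and list counts include them. Replicate numbers only name libraries. Promoter windows came from RefSeq (GRCm38.p6).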

Additional observations from a re-analysis of the deposited data

How the results depend on the processing

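In edgeR no interaction passed an adjusted p under 0.05 under the filters, size factors and left-out libraries tried, or under 0.1 in the fit reported, and limma-voom also called 0 (453 genes at an unadjusted p under 0.05, 407 of them among the 459 of edgeR). DESeq2 called 84, all of them at an unadjusted edgeR p under 0.05; the cause was not tested. The 459 genes at an unadjusted p under 0.05 became 296 without T deltaPOZ 2 and 749 without B wt 2. The 31 genes of opposite direction became 93 with a mean of 1 CPM, 9 with a mean of 20 CPM, 52 to 96 with 1 library left out and 191 without 3 libraries (B wt 2, T wt 1 and T deltaPOZ 2, a setting chosen after seeing the data), since fewer libraries overlap less often by construction. The correlation of the B and T effects was 0.052 with a mean of 1 CPM and 0.029 to 0.241 with 1 library left out.

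Of the 119 named genes, the interaction of a few turned sign. With 1 library left out, it ran from -0.08 (T wt 1) to 0.58 for Tmem126a, from -0.25 (B deltaPOZ 1) to 0.66 for Ambra1, from -0.28 (B wt 1) to 1.73 for Mxd4, and from -1.98 to 0.24 (T wt 1) for Cd74. Without the 3 libraries it was -0.3 for Tmem126a, 0.43 for Itga6, -0.03 for Rps27l and 0.19 for Zbtb17. The cause was not tested. No paired analysis was possible because the labels give the libraries mouse numbers only, with none shared between groups. With 2 libraries per group, the precision is limited by the spread between mice rather than by depth.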
